A study of Arabidopsis thaliana with 12 samples.

Results

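SWEET genes encode sugar transporters of plants, and their transcripts were followed here over 10 days in cultured Arabidopsis thaliana cells that were induced to become tracheary elements, the dead, lignified conduits of xylem. The members were the probe sets that the array's annotation gives to a single gene whose symbol begins with SWEET, which are 15 of the 22746 probe sets analysed. Of these, 14 are numbered SWEET transporters. The other one, SWEETIE, fits by its letters alone: it is known as a regulator of sugar metabolism and is not a transporter, so it is described apart.

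The arrays were Affymetrix ATH1, which read a gene through a set of short probes, and total RNA came from a suspension culture of the accession Col-0. There were 12 arrays, 2 for each of days 0, 2, 4, 6, 8 and 10. Day 0 cells were untreated. For the later days, a 7.5 ml portion of a 7-day-old subculture was moved to 42.5 ml of fresh medium that held 10 mM boric acid and the brassinosteroid brassinolide at 1 uM. The labels of every sample list that medium and a maintenance medium with the synthetic auxin 2,4-D, and both hold 3% sucrose. The labelled temperature was 22 C on days 0, 4 and 8 and 27 C on days 2, 6 and 10. A later day against day 0 therefore takes in hormone, boric acid, medium and culture age together. On days 2, 6 and 10 the temperature is added, and these cannot be told apart. Every step between neighbouring days also changes the labelled temperature, so time and temperature cannot be told apart there either. The labels leave unsaid whether a day's 2 arrays had a culture each, so each p measures the spread between such arrays, which may be technical. All comparisons with day 0 use the same 2 day 0 arrays.

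SWEET proteins let sugars pass through a membrane down their concentration gradient, in either direction and without a coupled proton, unlike the proton-driven sucrose and hexose symporters. Some sit in the plasma membrane and export sugar from cells, such as SWEET11, which together with SWEET12 releases sucrose from leaf phloem parenchyma before phloem loading. Others, SWEET2, SWEET16 and SWEET17, sit in the tonoplast and move sugars between the vacuole and the cytosol. SWEET11 and SWEET12 are also known to be active in developing vascular tissue of the stem.

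A signal was taken as measured over background when it reached the 40th percentile of its own array, which lay between 17.2 and 22.1 signal units. A probe set was tested when both arrays of at least 1 day reached that level, which 6 of the 14 transporters did: SWEET1, SWEET2, SWEET6, SWEET11, SWEET16 and SWEET17. The other 8 transporters had 96 values in all, of which 3 reached the percentile of their array. SWEET2, SWEET6 and SWEET11 passed only through the days on which they were high, so a difference between their days was favoured by the filter. As the arrays hold RNA of whole cultures, a lower signal may mean fewer cells of a kind or less transcript in each, which cannot be told apart. Tests were limma's, on log2 signal with Benjamini-Hochberg adjustment over all 15103 probe sets tested, and a change is given as a log2 difference ± its standard error with n = 2 arrays on each side. Where one day was below the percentile, the arrays were raised to it and the ratio is given as at least that fold.

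SWEET11 gave a single sharp peak on day 4. Its signal was 18.6 and 16.1 at day 0, 28.7 and 24.9 at day 2, 603 and 674 at day 4, 80.3 and 65.0 at day 6, 40.3 and 36.25 at day 8 and, finally, 28.6 and 37.3 at day 10. Both day 4 arrays stood far above the other 10 arrays, and both day 0 arrays were the lowest and below the 40th percentile of their arrays. Against day 0 the signal on day 4 was at least 35.0-fold higher (5.2 ± 0.17, limma adjusted p = 7.93e-10).

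The largest steps of SWEET11 were the rise into day 4 and the fall after it. Day 4 exceeded day 2 by 4.58 ± 0.17 (limma adjusted p = 1.38e-08), a 23.8-fold difference. Day 6 differed from day 4 by -3.14 ± 0.17 (limma adjusted p = 1.95e-06). A rise from day 2 to 4 and a fall from day 4 to 6 were both called for 275 probe sets, 1.82% of those tested. Among the 6 transporters tested this held for SWEET11 alone, but SAG29 (SWEET15), which the symbol rule leaves out, had both calls too. Day 4 was also higher than the other days of the same labelled temperature: day 8 differed from it by -4.06 ± 0.17 (limma adjusted p = 1.98e-07), both at 22 C.

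Outside the peak, the levels of SWEET11 ran, from high to low, day 6, 8, 10, 2 and 0. On each later day it was above day 0, by at least 3.97-fold on day 6 (2.06 ± 0.17), 2.10-fold on day 8 (1.14 ± 0.17), 1.79-fold on day 10 (0.91 ± 0.17) and 1.47-fold on day 2 (0.63 ± 0.17), with limma adjusted p at most 0.00862. The day 2 rise did not pass without replicate 2 of day 0 (0.52, adjusted p = 0.0554), without replicate 1 of day 2 (0.52, adjusted p = 0.0598), or in a fit of those 4 arrays alone (adjusted p = 0.0648). Among the 27 C days, day 6 exceeded day 2 by 1.43 ± 0.17 and day 10 differed from day 6 by -1.15 ± 0.17, both called. Day 8 differed from day 6 by -0.92 ± 0.17 (adjusted p = 0.0155), a call lost without replicate 1 of day 6 (-0.77, adjusted p = 0.109) or either array of day 8 (-0.99 and -0.84, adjusted p = 0.0573 and 0.104). Neighbouring levels that did not pass were day 10 against day 8 (-0.23 ± 0.17, adjusted p = 0.808) and day 10 against day 2 (0.29 ± 0.17, adjusted p = 0.195).

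**Figure D1:**
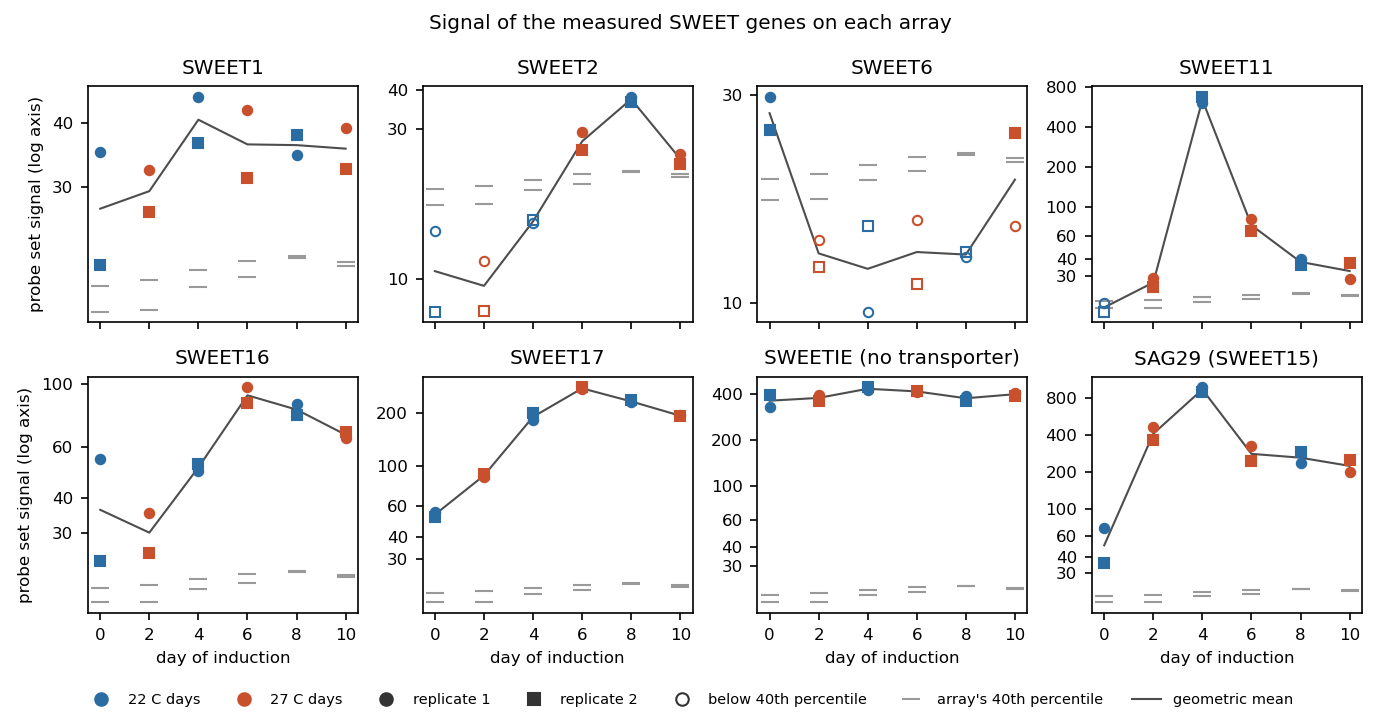
Signal of the 6 tested SWEET transporters, SWEETIE and SAG29 (SWEET15) on each of the 12 arrays (log axis, its range set per gene) against the day of induction, with 22 C days in blue, 27 C days in orange, circles for replicate 1, squares for replicate 2, open symbols below the array's 40th percentile (grey dashes) and a line through the geometric means. SWEET11 stands at 603 and 674 on day 4 and at or below 80.3 on every other array, whereas SWEET17 climbs to 270.4 and 277 on day 6 and declines slowly.

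SWEET1, a plasma membrane transporter of glucose, showed no called change with all 12 arrays. Its 12 signals ran between 21.2 and 44.9 with a median of 34.9, all above the 40th percentile of their arrays. The day 4 arrays, 44.9 and 36.6, were both above the day 0 arrays, 35.1 and 21.2, but the difference of 0.57 ± 0.25 did not pass (limma adjusted p = 0.0706), and over all 5 later days the moderated F gave an adjusted p of 0.309. The day 0 arrays differed from each other 1.66-fold. Without replicate 1 of day 0 the gene passed on days 4, 6, 8 and 10, by 0.94, 0.78, 0.77 and 0.75 (adjusted p between 0.00955 and 0.0273). The day 4 difference also passed with arrays raised to their 40th percentile (adjusted p = 0.0498).

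SWEET17, a tonoplast transporter that moves fructose, rose step by step to day 6 and then declined. Its signal was 55.2 and 51.8 at day 0, 87.4 and 90.0 at day 2, 181 and 198 at day 4, 270.4 and 277 at day 6, 228 and 234 at day 8 and, finally, 193 and 191 at day 10. The arrays of a day were close, at most 1.09-fold apart, and no array of days 2 to 10 overlapped those of day 0. Against day 0 the change was 0.73 ± 0.09 on day 2, 1.82 ± 0.09 on day 4, 2.35 ± 0.09 on day 6, 2.11 ± 0.09 on day 8 and 1.84 ± 0.09 on day 10 (limma adjusted p between 1.34e-09 and 2.00e-05). At its highest, on day 6, the gene was 5.12-fold above day 0.

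Each of the first 3 steps of SWEET17 passed on its own. Day 4 exceeded day 2 by 1.09 ± 0.09 (limma adjusted p = 2.41e-06) and day 6 exceeded day 4 by 0.53 ± 0.09 (adjusted p = 0.00208). Rises in all 3 successive steps up to day 6 were called for 124 probe sets, 0.821% of those tested, and for no other of the 6 transporters. The later decline was called over the 4 days from 6 to 10, both at 27 C (-0.51 ± 0.09, adjusted p = 0.00227), but not for day 8 against day 6 (-0.24 ± 0.09, adjusted p = 0.129) or day 10 against day 8 (-0.27 ± 0.09, adjusted p = 0.326). In the order of levels, day 10 and day 4 were next to each other and 0.02 ± 0.09 apart (adjusted p = 0.889). Day 8 exceeded day 4, both at 22 C, by 0.29 ± 0.09 (adjusted p = 0.0327). This did not pass when replicate 1 of day 4 (0.22) or either replicate of day 8 (0.31 and 0.27) was left out, nor with arrays centred on their medians (0.15).

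SWEET16, the other fructose-carrying tonoplast transporter, which also moves glucose and sucrose, was higher from day 6 on. It read 54.6 and 24.1 at day 0, 35.5 and 25.7 at day 2, 49.6 and 52.55 at day 4, 97.4 and 85.8 at day 6, 84.9 and 78.1 at day 8 and, finally, 64.8 and 68.2 at day 10. The day 0 arrays were 2.27-fold apart, the widest spread within a day among the tested transporters, and the day 2 and day 4 arrays overlapped their range. The arrays of days 6, 8 and 10 were all above both day 0 arrays, by 1.33 ± 0.3, 1.17 ± 0.3 and 0.87 ± 0.3 (limma adjusted p = 0.00213, 0.00489 and 0.0226). The size of all 3 rises depended on the day 0 arrays. Without replicate 2 of day 0 they were 0.74, 0.58 and 0.28, of which the first pair passed (adjusted p = 0.00881 and 0.0301) and day 10 did not (adjusted p = 0.252), and without replicate 1 they were 1.92, 1.76 and 1.46. The day 10 rise also did not pass without replicate 1 or 2 of day 10 (0.91 and 0.84), nor with quantile normalization (0.63) or median centring (0.64). Day 8 exceeded day 4, both at 22 C, by 0.67 ± 0.3, which did not pass (limma adjusted p = 0.130). That difference passed in a fit of those 4 arrays alone (limma adjusted p = 0.0149) and when either array of day 0 was left out. Against day 2, which does not involve day 0, SWEET16 was higher by 1.6 ± 0.3 on day 6 (adjusted p = 8.07e-04, both at 27 C), 1.43 ± 0.3 on day 8 (adjusted p = 0.00194) and 1.14 ± 0.3 on day 10 (adjusted p = 0.00779), the last lost without replicate 2 of day 2 (0.91, adjusted p = 0.0690).

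SWEET2, a tonoplast glucose transporter best known from roots, came up from below the 40th percentile. Its signal was 14.3 and 7.89 at day 0, 11.5 and 7.91 at day 2, 15.1 and 15.4 at day 4, 29.3 and 25.65 at day 6, 38.0 and 36.6 at day 8 and, finally, 24.99 and 23.2 at day 10. All 6 arrays of days 0 to 4 were below the percentile and all 6 of days 6 to 10 above it. Against day 0 it was at least 1.50-fold higher on day 6 (1.37 ± 0.3), 2.05-fold on day 8 (1.81 ± 0.3) and 1.32-fold on day 10 (1.18 ± 0.3), with limma adjusted p of 0.00186, 2.50e-04 and 0.00457. Without replicate 2 of day 0 the day 10 change was 0.76 (adjusted p = 0.0455). Between its highest day and the neighbours, day 8 against day 6 (0.44 ± 0.3, adjusted p = 0.446) and day 10 against day 8 (-0.63 ± 0.3, adjusted p = 0.609) did not pass. Within the 22 C days it was at least 1.87-fold higher on day 8 than on day 4 (1.29 ± 0.3, adjusted p = 0.0102), a call lost without replicate 1 of day 4 (1.27) or either replicate of day 8 (1.26 and 1.31).

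SWEET2 and SWEET16 were the transporters called higher on days 6, 8 and 10 but on neither day 2 nor day 4. Over all probe sets tested, 333 had these calls, 2.20%. This pattern rested on the day 0 arrays. Without replicate 1 of day 0 both were also called on day 4, SWEET2 at 0.95 and SWEET16 at 1.08. Without replicate 2 of day 0, SWEET16 was called lower on day 2, at -0.86 in place of -0.27. The step from day 4 to 6 was 0.84 ± 0.3 for each of them and did not pass (adjusted p = 0.0816 for SWEET2 and 0.0810 for SWEET16), but it passed for both when either array of day 0 was left out, neither of which enters that comparison other than through the estimate of the spread (adjusted p = 0.0371 and 0.0341 for SWEET2, 0.00658 and 0.00601 for SWEET16), and with a pseudocount (0.6 and 0.75). The step from day 2 to 4 likewise passed for both when either array of day 0 was left out, at 0.68 for SWEET2 and 0.76 for SWEET16.

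SWEET6 was highest in the untreated cells. It read 29.7 and 24.98 at day 0, 13.9 and 12.1 at day 2, 9.57 and 15.0 at day 4, 15.5 and 11.1 at day 6, 12.8 and 13.1 at day 8 and, finally, 15.0 and 24.6 at day 10. Both day 0 arrays and 1 of day 10 reached the 40th percentile, and the 2 arrays of day 10 lay 1.64-fold apart. Against day 0 it was at least 1.47-fold lower on day 2, 1.37-fold on day 4, 1.31-fold on day 6 and 1.24-fold on day 8 (limma adjusted p = 0.0144, 0.00818, 0.0148 and 0.0134), and the day 10 difference of -0.51 ± 0.33 did not pass. Each of these 4 falls was lost when some single array was left out: replicate 1 of day 0 for days 2, 6 and 8, and also replicate 2 of day 2 (-0.97), replicate 1 of day 4 (-0.86), replicate 2 of day 6 (-0.81) and replicate 1 of day 8 (-1.06) for the day concerned. The day 8 fall did not pass either when arrays were raised to their 40th percentile (-0.31, adjusted p = 0.0645).

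**Figure D2:**
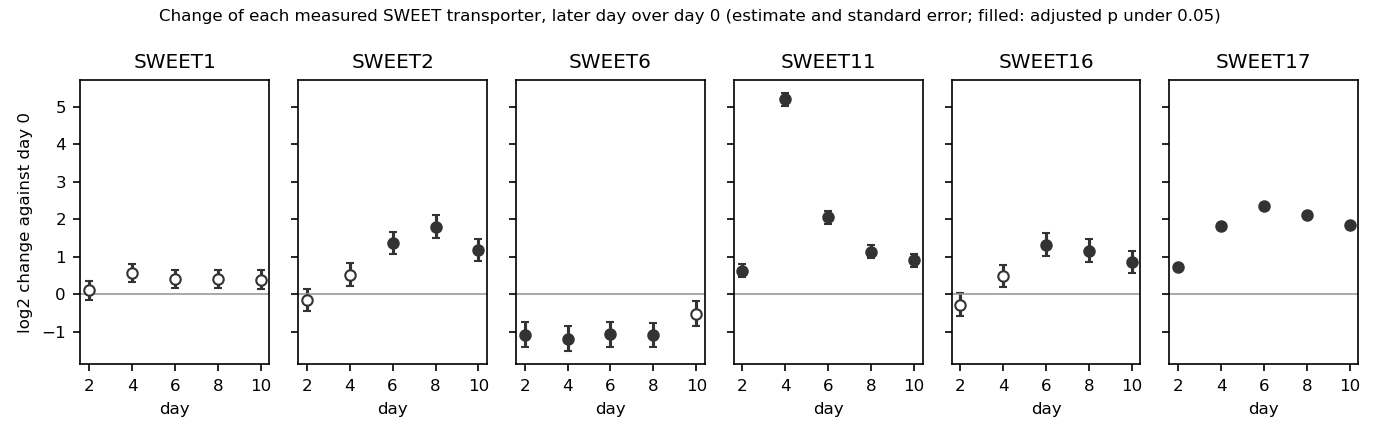
Log2 change of each of the 6 tested SWEET transporters on days 2, 4, 6, 8 and 10, each against day 0, with the standard error of the limma fit as bars (n = 2 arrays on each side). Filled points passed at an adjusted p under 0.05: SWEET11 and SWEET17 on all 5 days, SWEET2 and SWEET16 on days 6 to 10, SWEET6, as a fall, on days 2 to 8, and SWEET1 on none.

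Counted over the 6 transporters tested, 3 passed on day 2 against day 0 (2 up, 1 down), when 61.3% of all probe sets tested were called. On day 4 it was again 3 (2 up, 1 down) beside 61.5%, on day 6 it was 5 (4 up, 1 down) beside 62.5%, on day 8 it was 5 (4 up, 1 down) beside 63.5%, and on day 10 it was 4, all up, beside 63.9%. With 6 genes, these counts are read only against that background, and nothing particular to the family is drawn from them. The day 4 count depended on replicate 1 of day 0. Without that array, the day 4 changes of the 3 transporters that had not passed were larger. They were 0.94 for SWEET1, 0.95 for SWEET2 and 1.08 for SWEET16, in place of 0.57, 0.53 and 0.49. SWEET11 and SWEET17 rose on all 5 later days, as did 20.0% of all probe sets. The moderated F over the 5 later days called 5 of the 6, against 80.8% of all probe sets. The median change of the 6 was -0.02, 0.55, 1.35, 1.15 and 0.89 on days 2 to 10, against 0.07, 0.1, 0.05, 0.09 and 0.08 over all probe sets tested, a contrast that the filter favoured as stated above.

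Between neighbouring days, 2 of the 6 passed from day 2 to 4 (both up, background 44.8%), 2 from day 4 to 6 (SWEET17 up and SWEET11 down, background 15.6%) and 1 from day 6 to 8 (SWEET11 down, background 5.59%). From day 8 to 10 limma called none of the 6, with 1 at an unadjusted p under 0.05, and 0.0728% of all probe sets. When either array of day 0 was left out the first 2 counts were 4 and 4, and without replicate 1 of day 6 or either replicate of day 8 the third was 0. Between days of equal labelled temperature, 4 of 6 passed from day 2 to 6, all up (background 53.3%), 3 from day 4 to 8, 2 of them up (background 23.0%), and 2 from day 6 to 10, both down (background 19.3%). Over longer spans, 4 of 6 passed on day 8 against day 2 (background 49.9%), 3 on day 10 against day 2 (background 50.1%) and 1, SWEET11, on day 10 against day 4 (background 29.6%). The count for days 4 to 8 was lower without replicate 1 of day 4 or either replicate of day 8. SWEET16 was gained there when either array of day 0 was left out. When 1 array was left out the background shares moved too, to between 0.934 and 6.81% from day 6 to 8, 7.18 and 16.9% from day 4 to 6, 12.8 and 24.0% from day 4 to 8, 9.93 and 20.9% from day 6 to 10, 18.0 and 30.6% from day 4 to 10, and 0 and 0.311% from day 8 to 10.

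The 8 transporters that did not reach the filter gave no test. SWEET3, SWEET8 and SWEET9 reached the 40th percentile on 1 array each, with highest signals of 21.0, 21.1 and 19.4. For SWEET8 that array was replicate 1 of day 4, at 20.89, and its highest signal was below the percentile of its own array, 21.9. SWEET8, also called RPG1, is known from pollen wall formation and SWEET9 from nectar secretion. SWEET4, SWEET7, SWEET10, SWEET13 and SWEET14 reached it on no array. SWEET13 ran between 10.2 and 17.0 and SWEET10 between 4.41 and 13.7; these genes are direct neighbours, with 0 annotated genes between them in the RefSeq table used here. SWEET4, a hexose transporter of the veins, ran between 3.46 and 15.5. SWEET14 ran between 0.717 and 11.8, and SWEET7 between 0.2995 and 5.17. SWEET13 and SWEET14, which act in anthers, thus stayed below the level used for background on all 12 arrays; a transcript at such a signal was not measurable here, which does not show that it was absent.

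**Figure D3:**
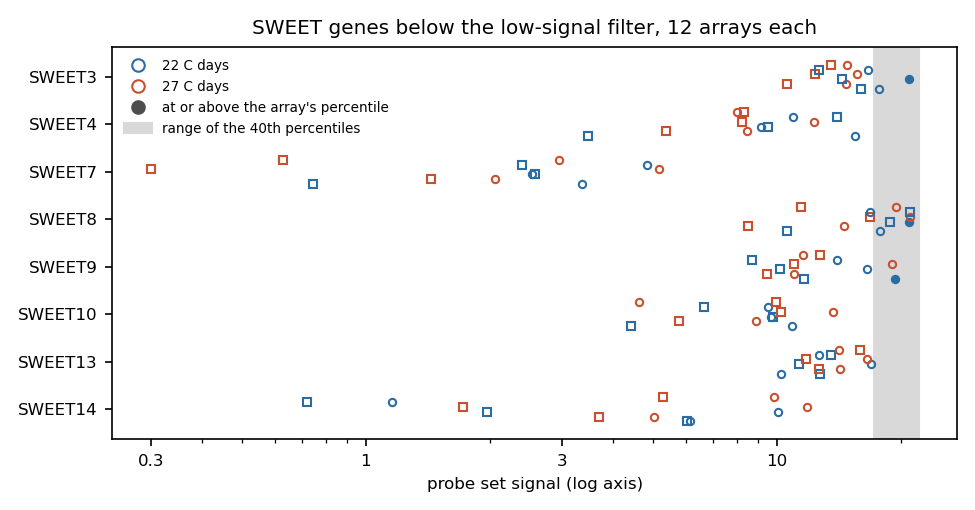
Signal on each of the 12 arrays (log axis) for the 8 SWEET transporters below the low-signal filter, with 22 C days in blue, 27 C days in orange, circles for replicate 1, squares for replicate 2 and filled symbols at or above the array's own 40th percentile. The grey band spans the arrays' percentiles, 17.2 to 22.1, and 3 of 96 values are filled, 1 each for SWEET3, SWEET8 and SWEET9.

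SWEETIE had a nearly level signal far above the 40th percentile, between 331 and 443.5 with a median of 398. In the main fit its only call was day 4 against day 0, where it read 426 and 443.5 against 331 and 397 (0.26 ± 0.09, limma adjusted p = 0.0317). That call was lost with arrays centred on their medians (0.14), without a variance trend, in a fit of the 4 arrays alone, and without replicate 1 of day 0 (0.13) or either array of day 4 (0.29 and 0.23). Other calls were gained under alternatives. Days 6 and 10 against day 0 passed with quantile normalization (0.26 and 0.23) and without replicate 2 of day 0 (0.33 and 0.27). Day 8 against day 4 passed with arrays centred on their medians (-0.35). Over all later days the moderated F gave an adjusted p of 0.142.

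The symbol rule leaves out family members that are filed under another name. The RefSeq table gives SWEET15 as a synonym of SAG29, a gene first known from leaf senescence whose product exports sucrose and helps fill seeds, and SWEET5 as a synonym of AtVEX1, a gene of the vegetative cell of pollen. SWEET12 is not analysed here. SAG29 read 70.1 and 36.1 at day 0, 460 and 364 at day 2, 976 and 904 at day 4, 323 and 243 at day 6, 234.5 and 290 at day 8 and, finally, 200.1 and 249.6 at day 10. Like SWEET11 it was highest on both day 4 arrays, but its day 2 arrays were already well above day 0. Against day 0 it was higher by 3.02 ± 0.26 on day 2 and 4.22 ± 0.26 on day 4 (limma adjusted p = 1.65e-06 and 8.00e-08), an 18.7-fold difference on day 4. Day 4 exceeded day 2 by 1.2 ± 0.26 (limma adjusted p = 0.00299), so SAG29 shared with SWEET11 a called rise into day 4 and a called fall after it. It fell by 1.75 ± 0.26 on day 6 against day 4 (adjusted p = 0.00120) and was still 2.15 ± 0.26 above day 0 on day 10. AtVEX1 ran between 0.915 and 12.8 and reached the 40th percentile on no array.

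Courses most like that of SWEET11 were sought among 947 tested genes whose day means spanned at least 2 log2 units, by Pearson's r over the 12 arrays of signals raised to the 40th percentile. The 5 highest were AT4G13710 (r = 0.98), AT2G24230 (0.974), AT2G01580 (0.962), AT3G08490 (0.931) and AT5G48740 (0.922). All 5 had their highest mean on day 4, AT2G01580 with 166, AT3G08490 with 146 and AT5G48740 with 145. For SWEET17, among 3221 genes spanning at least 1 unit, they were AT1G53560 (r = 0.989) and AT2G33390, AT5G06610, AT1G28100 and AT2G17710 (0.986 each). These 5 had their highest mean on day 6, AT5G06610 with 489.7 and AT1G28100 with 490.5 against 10.3 and 15.8 on day 0. As the genes were chosen for a high r, the shared peak days follow from that choice. The arrays of a day share their day's shifts, so these r describe likeness of course only and carry no test.

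**Figure D4:**
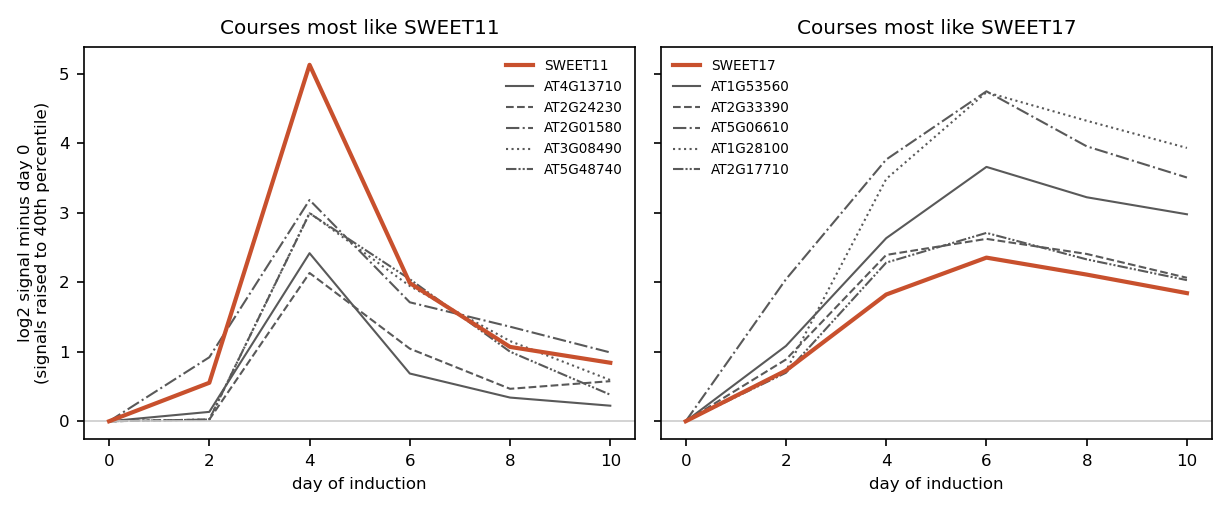
Mean log2 signal of each day minus that of day 0, with signals raised to the 40th percentile of the array, for SWEET11 (left) and SWEET17 (right) in orange and the 5 genes most correlated with each in grey. The left courses peak on day 4 and the right ones on day 6, and SWEET11 spans at least 5.13 log2 units, its day 0 being below the percentile, and SWEET17 2.35.

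SWEET transporters pass on sugar that other proteins take up, split or phosphorylate, so lists of 105 such genes were set beside them: sucrose and hexose symporters, other sugar transporters, invertases, sucrose synthase and sucrose phosphate enzymes, and hexose kinases with UDP-glucose pyrophosphorylases. The annotation named 31 of the 105 and 22 were tested; of the 9 sucrose symporters it named 0, so these have no value here. Compared with day 0, rises numbered 7, 6, 8, 7 and 7 and falls 9, 10, 11, 11 and 10 at days 2, 4, 6, 8 and 10, when 61.3 to 63.9% of all probe sets were called. Their median change was -0.26, -0.3, -0.18, -0.32 and -0.18 on those days, against 0.07, 0.1, 0.05, 0.09 and 0.08 over all probe sets tested.

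Of 11 transporters of the tonoplast, plastid, polyol and ERD6-like groups, 6 rose and 5 fell on day 6, when 62.5% of all probe sets were called. SFP1, an ERD6-like sugar transporter, read 119 and 121 on day 10 against 17.5 and 7.59 on day 0, at least 6.58-fold higher on day 10 (3.38 ± 0.3, limma adjusted p = 1.65e-06). It already read 100.4 and 74.5 on day 2. AT3G05400 of the same list had its highest mean on day 6 (2.54 ± 0.23). Its day 6 arrays read 177 and 103.8, the second below replicate 2 of day 8 at 110.4. AT3G05150 and AT1G54730 were the largest falls, the first at least 17.1-fold lower on day 4 and the second fell by 1.85 ± 0.12 on day 2. AT3G05150 already read 0.963 and 2.11 on day 2 against 428 and 272 on day 0. The tonoplast monosaccharide transporters TMT2 and TMT1, proton antiporters that load the vacuole and were picked here after their values were seen, differed: TMT2 was above day 0 on all 5 days, by 1.12 ± 0.09 to 1.47 ± 0.09, and TMT1 passed on day 6 alone (0.32 ± 0.11, adjusted p = 0.0285). Of 2 hexose symporters tested, AT1G34580 passed on day 6 alone (0.69 ± 0.22, adjusted p = 0.0187), a call lost with quantile normalization (0.49), median centring (0.51), and without the first array of day 0 (0.65) or of day 6 (0.6).

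On day 4, when 61.5% of all probe sets were called, 4 of the 5 tested genes of the invertase and sucrose phosphate lists passed, all down. On days 6, 8 and 10, when 62.5 to 63.9% were called, the invertase list again had 1 fall and the sucrose phosphate list 3. On days 8 and 10 the invertase list also had 1 rise. cwINV6, named for cell wall invertases and given in RefSeq also as a fructan exohydrolase, read 26.9 and 18.2 on day 4 against 1077 and 891 on day 0, at least 43.1-fold lower with 1 of the day 4 arrays below the percentile (-5.47 ± 0.24, limma adjusted p = 5.71e-09). On day 2 cwINV6 already read 65.3 and 39.1. The other tested gene of the invertase list, AT1G62660, rose on day 2 (1.34 ± 0.23) and was not called on day 4. ATSPS4F, a sucrose phosphate synthase, had its largest fall on day 6, at least 2.73-fold. It already read 1.11 and 0.746 on day 2 against 54.6 and 59.1 on day 0. AT3G54270 had its largest fall on day 8, at least 1.80-fold with 1 of its day 8 arrays below the percentile. It already read 25.85 and 25.6 on day 4 against 41.2 and 43.6 on day 0. The kinase list had 2 genes up and 2 down on day 4, beside the same 61.5% of all probe sets. AT3G59480 read 1023 and 1026 on day 4 against 30.8 and 13.1 on day 0, at least 44.5-fold higher with 1 of the day 0 arrays below the percentile (5.67 ± 0.28, adjusted p = 1.22e-08), and still had 723 and 785 on day 6. AT1G66430 rose on day 2 (1.25 ± 0.27), AT2G31390 fell by 2.29 ± 0.12 on day 10 and AT5G51830 fell by 1.56 ± 0.14 on day 6.

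**Figure D5:**
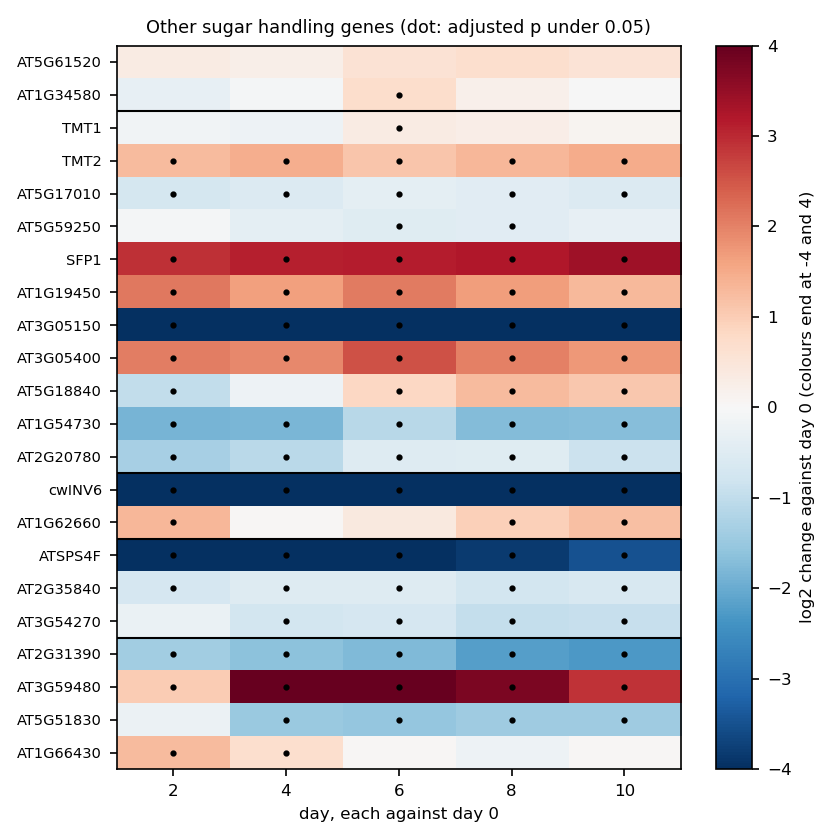
Log2 change on days 2, 4, 6, 8 and 10, each against day 0, for the 22 tested genes of the sugar handling lists, red for higher and blue for lower on the later day, with colours ending at -4 and 4, dots for an adjusted p under 0.05 and lines between lists (hexose symporters, other transporters, invertases, sucrose phosphate enzymes, kinases, top to bottom). SFP1 and TMT2 are red and cwINV6 and ATSPS4F blue on all 5 days, while AT3G59480 is at its darkest red on days 4 and 6.

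The labelled cells were checked against markers as far as the annotation allowed. Of 11 tracheary element markers it named 2, IRX10, a xylan synthase subunit listed as GUT2, and the locus AT4G04460. Both were above day 0 on day 4 and each later day, when 61.5 to 63.9% of all probe sets tested were called. Their means on day 4 were 128 and 1200 against 51.8 and 12.2 on day 0, and IRX10 was highest on day 6 with 495. Both day 0 arrays of AT4G04460 were below the percentile used for background, so its day 4 signal was at least 65.8-fold higher. The markers differed on day 2, when AT4G04460 already had a mean of 545 and IRX10 had 48.05. Of 7 phloem markers the annotation named 0, so whether phloem markers moved with SWEET11 was not tested. No label gives the share of cells that differentiated.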

How the data were processed

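The authors deposited 1 linear signal intensity per probe set and array. The submitters' processing notes name MAS5 as the tool, and its version and settings are not given in the sources used here. In the deposited table the trimmed mean (2% cut at each end) was 100.01 on every array, and array medians lay between 33.2 and 40.7; the number of arrays limits the precision. The members, lists and comparisons were chosen with earlier results of these data known, and day 8 against day 2, day 10 against day 2 and day 10 against day 4 were added after the values were seen.

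The table has 22810 probe sets. After 64 control probe sets were removed, 13513 of the rest have 1 gene in the platform annotation, matched to RefSeq by gene ID. The filter (40th percentile, both arrays of a day) kept 15103. The model, in limma 3.58.1 (R 4.3.3), took log2 signal with 1 mean per day over 12 arrays, no block and a variance trend, and calls are at an adjusted p under 0.05, 2-sided. The script was tested on simulated data. Named genes were every SWEET member, up to 2 rises and 2 falls per list among called genes whose higher day was above the percentile, and the 5 most correlated genes. Alternatives were quantile normalization, median centring, a 60th percentile filter or none, adding a pseudocount of 8.50, arrays raised to their 40th percentile, the replicate number as a block, no trend, the 4 arrays compared alone, and leaving out each array.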

Additional observations from a re-analysis of the deposited data

How the results depend on the processing

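For the SWEET transporters and SWEETIE, 43 changes between days were called, no alternative reversed one, and 31 were called under every alternative in which the gene was tested. The 12 others are named with their values in the report, or are SWEET11 on day 8 against day 2 (0.52), which did not pass with quantile normalization (0.3), median centring (0.32), the 4 arrays alone, or without replicate 2 of day 2 or either replicate of day 8. The 4 arrays alone also ended SWEET16 on day 10 against day 0 and SWEET17 on day 8 against day 4. Calls of SAG29, and the largest called change of each gene that the rule named from the lists, numbered 26, and 24 were kept throughout. The exceptions were AT1G34580, and SAG29 on day 10 against day 2, lost without the first array of either day. The calls of TMT1 and TMT2 were not among the 26. The 60th percentile filter left out SWEET2 and SWEET6 among others, and gave 3 calls on day 6, 3 on day 8 and 3 over the 6 days. The pseudocount gave 4 calls for day 6 against day 4, and raising arrays to their 40th percentile 1 for day 10 against day 8. Leaving out 1 array in turn gave 2 to 6 calls on day 4 against day 0, 2 to 4 on day 4 against day 2, 2 to 4 on day 6 against day 4, 0 to 1 on day 8 against day 6, and 1 to 4 on day 8 against day 4; the cause was not tested. With arrays centred on their medians, the median change of all probe sets against day 0 was -0.02, -0.13, -0.17 and -0.16 at days 4, 6, 8 and 10, in place of 0.1, 0.05, 0.09 and 0.08. Same-numbered arrays deviated together only weakly (r over 0.1 in 4 of 15 pairs of days, highest 0.128). This does not show whether they had more than a number in common, which the labels leave unsaid. With the replicate block all 43 calls were kept. SWEET1 on day 4 against day 0 and SWEET16 on day 4 against day 2 were gained, which made 4 and 3 calls in place of 3 and 2.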

Other observations

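Isocitrate lyase, ICL, the glyoxylate cycle enzyme that plant cells use when they live on lipid or acetate, was the only member of the senescence and sugar starvation list that the annotation named. It read 1582 and 1531 at day 0, 543 and 575 at day 2, 99.6 and 72.7 at day 4, 223.5 and 167 at day 6, 86.5 and 90.2 at day 8 and, finally, 68.7 and 70.5 at day 10. All later arrays were below both day 0 arrays, and the largest fall, on day 10, was -4.48 ± 0.15 (limma adjusted p = 9.56e-10). Its day 4 arrays, where SWEET11 and SAG29 were highest, were below its day 6 arrays. The other 7 members of that list are not analysed here, so this is the course of 1 gene.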
